A study of Mus musculus with 20 samples.

Results

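In liver and white adipose tissue (WAT) of mice, 10 genes that mark the endothelium, the cell layer that lines blood vessels, were followed: Pecam1, Cdh5, Cldn5, Egfl7, Sox18, Tie1, Tek, Kdr, Flt1 and Eng. Every probe whose gene name in the scanner files equals one of these 10 symbols was taken, which gave 18 probes of the 41174 probes on the array and 10 genes of 27750 probe groups with a gene name or identifier of their own. The study asked how the nuclear receptor RORα, encoded by Rora, acts in mice on a fat-rich diet. Total RNA was measured on 20 Agilent arrays with 1 dye, 5 arrays for each of 4 groups: liver of RORasg/sg mice (sg/sg, staggerer), liver of wild-type (WT) mice, WAT of sg/sg mice and WAT of WT mice. The sg/sg mice carry a natural deletion in Rora in all of their cells. All animals of the 4 groups were male C57BL/6 mice, 5 months old and kept for 6 weeks on feed with 35% fat, so no group on another diet is part of the comparison. The labels name neither the fat depot nor whether a liver array and a WAT array with the same number share a mouse.

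Endothelial cells hold together through adherens junctions, built on VE-cadherin (Cdh5), and tight junctions, to which claudin-5 (Cldn5) belongs. Their growth and survival are steered by VEGF through the receptors encoded by Kdr and Flt1, by angiopoietins through the receptor Tek (Tie2) and its partner Tie1, and by BMP and TGF-β ligands through the co-receptor endoglin (Eng). The vessels of both tissues differ in kind: liver sinusoids have open pores and little basement membrane, whereas fat is fed by a closed capillary bed that takes up fatty acids.

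Levels are log2 intensities set relative to each array's own 75th percentile, so a difference of 1 is a doubling. That percentile was at an intensity of 648 to 901 on the sg/sg liver arrays and 817 to 1090 on those of WT liver, and of 1352 to 2052 for sg/sg WAT and 1936 to 2598 for WT WAT. The share of probes well above background was 57.3% to 58.7%, 56.5% to 62.4%, 71.9% to 80.3% and 75.3% to 81.1% in the same 4 groups. Rora, the gene with the deletion, had levels from -1.05 to -0.51 in sg/sg liver, against 1.90 to 2.22 in WT liver, and from -3.18 to -2.38 in sg/sg WAT, against -0.14 to 0.21 in WT WAT; the files do not say whether its probes lie in the deleted part. The tissue labels were checked with 1 gene each: Alb, the hepatocyte albumin gene, was at 9.19 or more on every liver array and at 2.32 or less on every WAT array, and Adipoq, the adipocyte hormone adiponectin, at 6.5 or more on every WAT array and at -3.94 or less on every liver array. The arrays came from 6 slides, each scanned at once. In liver, slide 1 held 4 WT arrays, slide 3 held 2 sg/sg arrays, and slide 2 alone held both genotypes (3 sg/sg, 1 WT). In WAT, slides 4, 5 and 6 each held both genotypes. No slide held both tissues.

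Promoter sequences show what the members, called or not, hold upstream of their starts. The RefSeq promoter table of GRCm38.p6 held 9 promoters for 7 of the 10 genes, 3 of them of Egfl7 and none of Pecam1, Cdh5 or Sox18. The 250 bases before each start were searched on both strands for 4 short motifs. The letters of the ETS core, GGAAGT, the motif family read by endothelial ETS factors, were in 6 of the 9 member promoters and in 19.7% of 32851 promoters in the table. Kdr and Eng, called in neither tissue, are among the genes with these letters. The half-site of nuclear receptors, AGGTCA, was in 1 of 9, against 14% of all promoters. The SOX letters AACAAT were in 1 of 9, against 9.4%, and the GATA letters AGATAA in 0 of 9, against 10%. No 2 matches overlapped, and a match is a description of letters only. The letters G and C made up 51.2% to 70.4% of the 9 member promoters, with a median of 52.4% over all promoters. The part of this in the motif counts was not tested. Shown here are 3 of the members that were higher in sg/sg liver and the 1 that was higher in sg/sg WAT, with matches to any of the 4 motifs in capitals. For Egfl7, the promoter of its 3 that holds the half-site is printed.
Egfl7, chr2:26583615-26583864, plus strand: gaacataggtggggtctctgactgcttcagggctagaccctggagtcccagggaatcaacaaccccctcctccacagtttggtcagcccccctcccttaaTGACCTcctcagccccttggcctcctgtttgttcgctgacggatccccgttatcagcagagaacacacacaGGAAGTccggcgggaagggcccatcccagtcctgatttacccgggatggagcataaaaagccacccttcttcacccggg
Cldn5, chr16:18776597-18776846, plus strand: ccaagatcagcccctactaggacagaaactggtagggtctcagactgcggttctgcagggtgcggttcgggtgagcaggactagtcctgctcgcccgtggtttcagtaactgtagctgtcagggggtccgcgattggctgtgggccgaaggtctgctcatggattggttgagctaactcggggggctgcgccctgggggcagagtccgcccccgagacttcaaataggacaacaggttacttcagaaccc
Tie1, chr4:118489850-118490099, minus strand: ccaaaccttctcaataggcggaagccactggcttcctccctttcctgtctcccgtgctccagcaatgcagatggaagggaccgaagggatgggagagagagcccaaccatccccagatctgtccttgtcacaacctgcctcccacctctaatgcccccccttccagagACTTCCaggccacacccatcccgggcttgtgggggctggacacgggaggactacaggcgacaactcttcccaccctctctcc
Flt1, chr5:147726012-147726261, minus strand: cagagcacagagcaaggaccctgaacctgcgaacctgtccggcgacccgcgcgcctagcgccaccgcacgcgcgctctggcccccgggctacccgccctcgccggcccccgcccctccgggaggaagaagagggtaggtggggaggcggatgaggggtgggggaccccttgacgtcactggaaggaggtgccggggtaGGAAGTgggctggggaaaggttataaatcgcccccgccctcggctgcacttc
Relative to the start, the ETS match in the printed promoters began at -79 in Egfl7, -82 in Tie1 and -52 in Flt1. The half-site in the printed Egfl7 promoter began at -150, in the reverse orientation. Of the Egfl7 promoters not printed, 1 held ETS matches at -217 and -160, and the other held none of the 4 motifs. The Cldn5 promoter held none of the 4 motifs in this window.

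**Figure D1:**
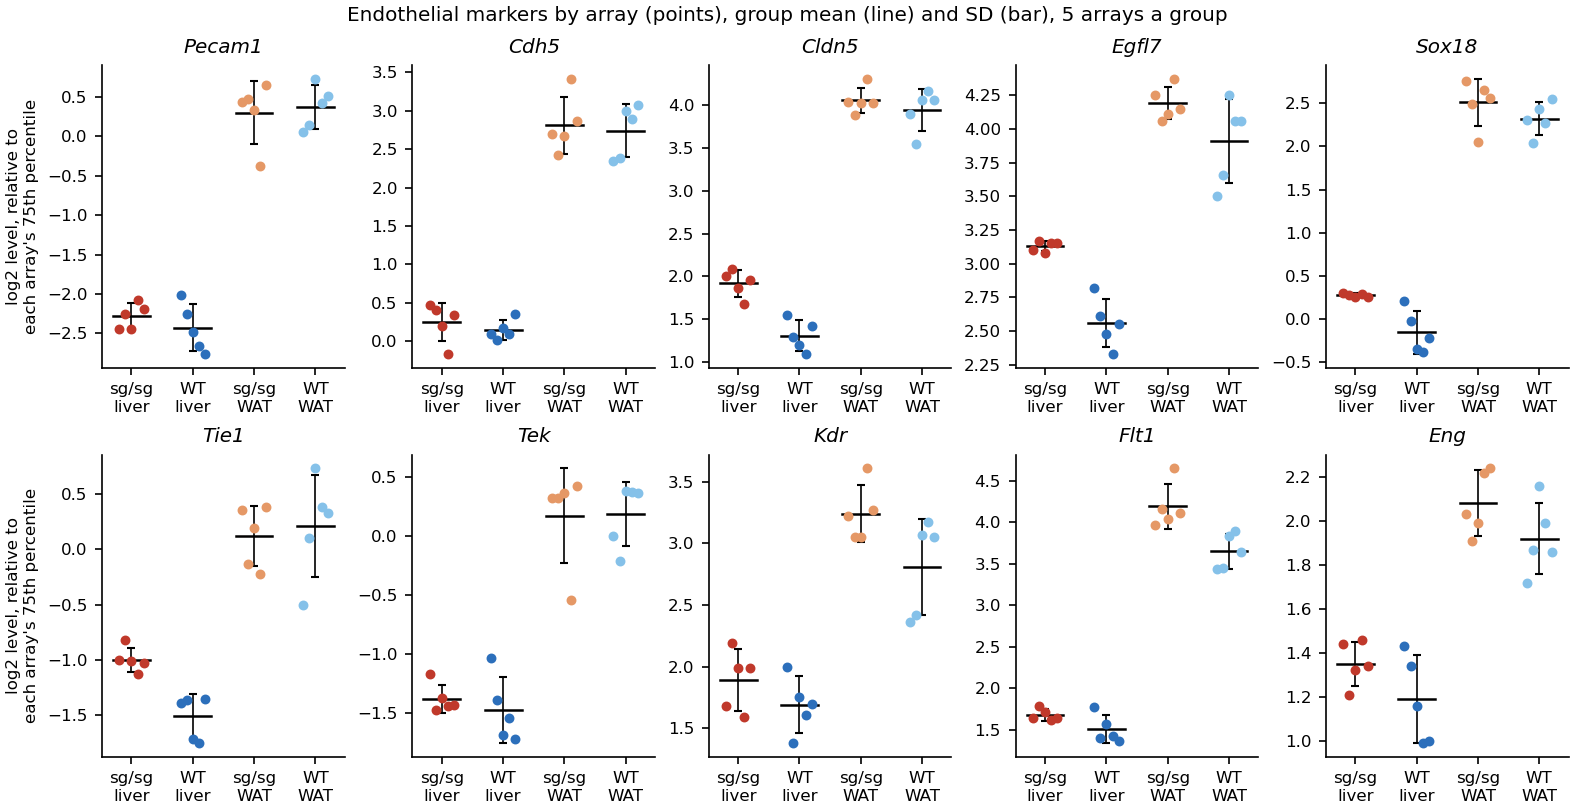
Level of each of the 10 endothelial markers on every array, as log2 intensity relative to the array's 75th percentile, in sg/sg liver, WT liver, sg/sg WAT and WT WAT; points are arrays, lines are means and bars are SDs over 5 arrays. The WAT arrays lie above the liver arrays for every gene, and in liver the sg/sg and WT points of Egfl7, Cldn5, Tie1 and Sox18 do not overlap.

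In liver, 4 of the 10 markers were higher in sg/sg than in WT mice and none was lower: Egfl7, Cldn5, Tie1 and Sox18, by 0.43 to 0.60 on the log2 scale. Across all 16788 genes tested in liver, 16.5% passed the same threshold, an adjusted p under 0.05 in limma, 9.32% with a higher and 7.15% with a lower level in sg/sg mice. With all 15 marker probes of liver kept apart, 4 passed, against 14.6% of all probes. The log2 change was above 0 for all 10 markers, as it was for 56.4% of all genes, and its median was 0.18 over the markers and 0.05 over all genes. In RNA from whole tissue, more endothelial cells and more RNA of these genes per cell cannot be told apart.

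Egfl7 encodes a protein that endothelial cells secrete into the matrix of growing vessels. Its probe lies on chromosome 2 at 26599768 to 26599827 of build mm7. Egfl7 was at 3.1, 3.17, 3.08, 3.15 and 3.15 in sg/sg livers, against 2.82, 2.61, 2.48, 2.33 and 2.55 in WT livers. Every sg/sg array was above every WT array, with an SD of 0.04 among sg/sg arrays and 0.18 among WT arrays. The log2 change of Egfl7 was 0.57 (SE 0.09, 1.49-fold, adjusted p = 0.00769, n = 5 per genotype).

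Cldn5, which seals the tight junctions between endothelial cells, was at 2.0, 2.09, 1.87, 1.68 and 1.96 in sg/sg livers, against 1.55, 1.29, 1.2, 1.10 and 1.42 in WT livers. The groups did not overlap. The log2 change of Cldn5 was 0.60 (SE 0.11, 1.52-fold, adjusted p = 0.0109). Its probe is on chromosome 16 at 18327686 to 18327745 (mm7).

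Tie1, a receptor-like kinase that forms complexes with the angiopoietin receptor, was at -1.0, -0.82, -1.01, -1.13 and -1.03 in sg/sg livers, against -1.39, -1.36, -1.71, -1.75 and -1.35 in WT livers. Again no WT array reached the lowest sg/sg array. The log2 change of Tie1 was 0.51 (SE 0.11, 1.43-fold, adjusted p = 0.0154), from a probe on chromosome 4 at 117847966 to 117848025 (mm7).

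Sox18 encodes a transcription factor of arterial and lymphatic vessel development. Sox18 was at 0.30, 0.28, 0.26, 0.29 and 0.26 in sg/sg livers, against 0.21, -0.02, -0.35, -0.38 and -0.22 in WT livers. The sg/sg arrays were nearly level (SD 0.02), the WT arrays were spread (SD 0.25), and the highest WT array, replicate 1, came close to the sg/sg arrays. The log2 change of Sox18 was 0.43 (SE 0.11, 1.35-fold, adjusted p = 0.0289). This call is the least stable of the 4, and was lost in 11 of 23 alternative settings, with an adjusted p of 0.0665 without WT liver replicate 3 and 0.0710 without WT liver replicate 4.

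Genotypes that did not overlap, with every sg/sg array above every WT array, were thus seen in these 4 of 10 markers and in 7.05% of all genes. The other 6 overlapped and did not pass the test. Kdr, the main signalling receptor for VEGF-A, was at 1.59 to 2.19 in sg/sg livers and 1.38 to 2.0 in WT livers, with a log2 change of 0.20 (SE 0.14, adjusted p = 0.359). Flt1, which binds VEGF-A tightly and signals weakly, was at 1.62 to 1.79 in sg/sg livers and 1.37 to 1.77 in WT livers (0.17, SE 0.09, adjusted p = 0.207). Eng was at 1.21 to 1.46 in sg/sg livers and 0.99 to 1.43 in WT livers (0.17, SE 0.10, adjusted p = 0.281).

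The 2 classical adhesion markers overlapped between the genotypes in liver. Pecam1, an adhesion molecule of endothelial junctions that platelets and leukocytes also carry, was at -2.45 to -2.08 in sg/sg livers and -2.76 to -2.01 in WT livers, a log2 change of 0.15 with a 95% interval from -0.17 to 0.47. Cdh5 was at -0.16 to 0.47 in sg/sg livers and 0.02 to 0.36 in WT livers, a log2 change of 0.10 with an interval from -0.17 to 0.38. The dimmer Cdh5 probe, at 102744103 to 102744162 of chromosome 8, gave a larger change of 0.31. Its interval was from 0.00 to 0.63 (adjusted p = 0.156 over all probes), and with the mean of both probes Cdh5 changed by 0.21. Tek was at -1.47 to -1.17 in sg/sg livers and -1.72 to -1.03 in WT livers, a log2 change of 0.10 with an interval from -0.19 to 0.39.

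Part of the spread in WT liver was shared between markers. WT liver replicate 1 was above its group mean for 9 of 10 markers, by 0.26 on average, and WT liver replicate 4 was below it for all 10, by 0.16. Among sg/sg livers the average deviation of an array ran only from -0.09 to 0.07. Slide and genotype are largely confounded in liver. Within slide 2, where 3 sg/sg arrays met 1 WT array, the log2 difference was 0.57 for Egfl7, 0.56 for Cldn5, 0.41 for Tie1 and 0.50 for Sox18, and the median was 0.38 over the 10 markers (0.00 for Cdh5, above 0 for the rest) and 0.04 over all genes. When slide entered limma as a fixed block, 0 of the 10 markers and 2 of 16785 genes passed. At an unadjusted p under 0.05, 2 of the 10 markers and 8.4% of all genes did. Genotype and slide cannot be told apart for these calls.

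**Figure D2:**
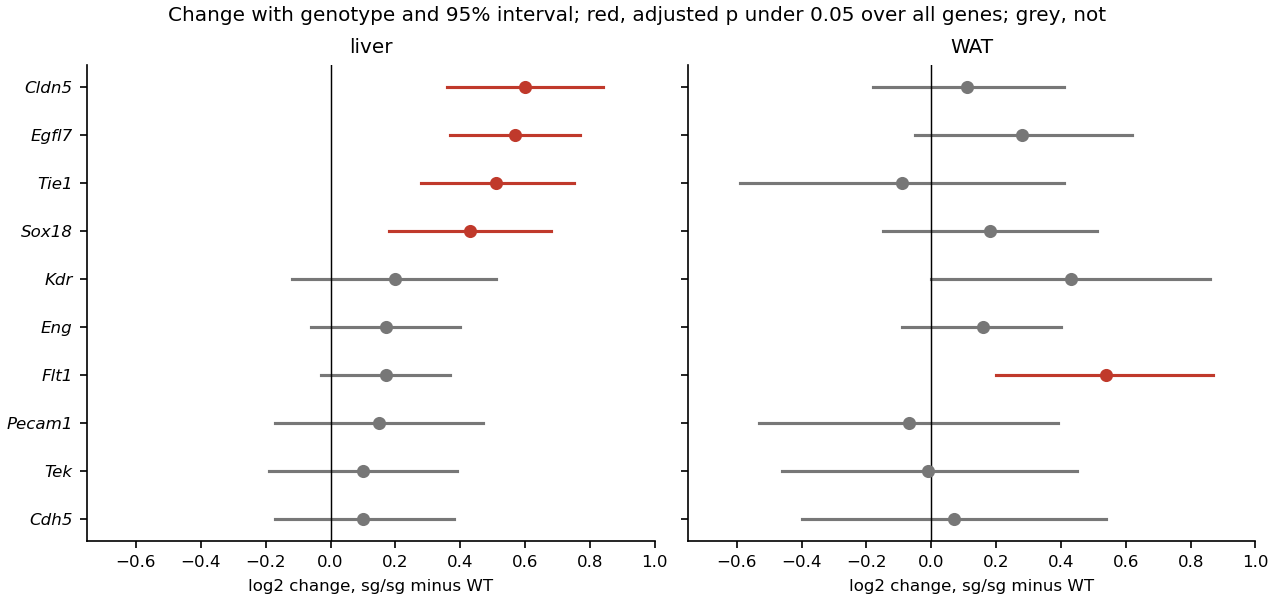
Log2 change of each marker, sg/sg minus WT, in liver (left) and WAT (right), with its 95% interval from limma; red marks an adjusted p under 0.05 over all genes and grey the rest. In liver Cldn5, Egfl7, Tie1 and Sox18 are red, at 0.43 to 0.60, and in WAT Flt1 alone is, at 0.54.

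In WAT, 1 of the 10 markers was higher in sg/sg than in WT mice, the VEGF receptor gene Flt1, and none was lower. Of all 21507 genes tested in WAT, 24.0% passed the threshold, 14.4% with a higher and 9.60% with a lower level in sg/sg mice. The median log2 change was 0.13 over the markers and 0.09 over all genes, and 7 of 10 markers were above 0, against 59.5% of all genes.

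Flt1 was at 3.97, 4.16, 4.04, 4.65 and 4.11 in sg/sg WAT, against 3.44, 3.45, 3.83, 3.89 and 3.64 in WT WAT. Each sg/sg array was above every WT array, a pattern shown by 13.2% of all genes in WAT and by no other marker. The log2 change of Flt1 was 0.54 (SE 0.15, 1.45-fold, adjusted p = 0.0274, n = 5 per genotype). Without sg/sg WAT replicate 4, the highest array, it was 0.42 (adjusted p = 0.0212). Without WT WAT replicate 1, 2 or 5, or sg/sg WAT replicate 2, the adjusted p was 0.0662, 0.0548, 0.0543 and 0.0518, and with normexp background correction the change was 0.35 (adjusted p = 0.120). Within slides the Flt1 difference was 0.77 on slide 4, 0.44 on slide 5 and 0.30 on slide 6, where limma called no gene.

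Flt1 has 5 probes, all on chromosome 5, and 4 of them were tested in WAT. The probe behind the gene's value, at 146456619 to 146456678 (mm7), was the brightest. The neighbouring probe, at 146456692 to 146456751, gave 0.42 (adjusted p = 0.187 over all probes), and that at 146532609 to 146532668 gave 0.55 (adjusted p = 0.103). The fourth, at 146548804 to 146548863, gave 0.36 (adjusted p = 0.0768). All 4 pointed the same way, and only the first passed the threshold, which 21.9% of 32315 probes passed in WAT. The last Flt1 probe was not well above background on any WAT array. In liver 4 Flt1 probes were also tested, with the last probe in place of the fourth, and gave 0.00 to 0.17. The 0.00 came from the last probe (SE 0.58), which was well above background on 2 of 5 liver arrays of each genotype.

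Kdr, the other VEGF receptor gene of the list, was at 3.22, 3.05, 3.05, 3.61 and 3.27 in sg/sg WAT, against 2.36, 2.42, 3.07, 3.17 and 3.05 in WT WAT. The groups overlapped, and the 2 lowest WT arrays, replicates 1 and 2, stood well below the other 3. The log2 change of Kdr was 0.43 (SE 0.19, adjusted p = 0.138). The second Kdr probe was well above background on 1 of 20 arrays and was not tested.

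The markers called in liver were close together in WAT. Egfl7 was at 4.06 to 4.37 in sg/sg WAT and 3.50 to 4.25 in WT WAT (0.28, SE 0.15, adjusted p = 0.208). Cldn5 was at 3.88 to 4.30 in sg/sg WAT and 3.54 to 4.16 in WT WAT (0.11, SE 0.13, adjusted p = 0.593). Sox18 was at 2.05 to 2.76 in sg/sg WAT and 2.04 to 2.55 in WT WAT (0.18, SE 0.15, adjusted p = 0.415). Tie1 was at -0.22 to 0.38 in sg/sg WAT and -0.50 to 0.73 in WT WAT, with a log2 change of -0.09 and an interval from -0.59 to 0.41.

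The remaining 4 markers also overlapped. Eng was at 1.91 to 2.24 in sg/sg WAT and 1.72 to 2.16 in WT WAT, a log2 change of 0.16 (SE 0.11, adjusted p = 0.345). Pecam1 was at -0.38 to 0.65 in sg/sg WAT and 0.06 to 0.73 in WT WAT, a change of -0.07 (SE 0.21, adjusted p = 0.847). Cdh5 and Tek gave 0.07 (SE 0.21, adjusted p = 0.855) and -0.01 (SE 0.21, adjusted p = 0.987).

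A single array stood apart from the rest of sg/sg WAT for several markers. For Cdh5, sg/sg WAT replicate 4 was the highest array of its group at the probe at 102744763 to 102744822 of chromosome 8 (3.41, the others 2.42 to 2.86), and the lowest at the probe 660 bases upstream, at 102744103 to 102744162 (-0.17, the others 0.36 to 0.72). For Tek the same array was at -0.54, the other 4 at 0.32 to 0.42, and for Pecam1 at -0.38, the others at 0.33 to 0.65. It was the highest of its group for Flt1, Kdr, Egfl7 and Cldn5. Over 1249 transcripts with probes 300 to 3000 bases apart, the median of the 3' minus the 5' probe, each centred on its tissue's median, was 0.33 in this array and -0.03 to 0.04 in the other 19. The part of this in the values of the markers was not tested. Without this array, the log2 change was 0.17 for Tek (adjusted p = 0.369) and 0.33 for Kdr (adjusted p = 0.217).

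Tek has a second probe, on chromosome 4 at 94134402 to 94134461 (mm7), far from the first at 94266776 to 94266835. It was at -2.81, -2.64, -2.82, -2.86 and -2.77 in sg/sg WAT, against -3.50, -3.37, -3.02, -3.04 and -2.91 in WT WAT. All sg/sg arrays were above all WT arrays at this probe, with a log2 change of 0.38 (SE 0.13, adjusted p = 0.0546 over all probes), whereas the first probe gave -0.01. The 2 probes were designed to different transcript records, and neither difference passed the threshold. In liver the second Tek probe gave 0.34 (SE 0.20, adjusted p = 0.262).

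**Figure D3:**
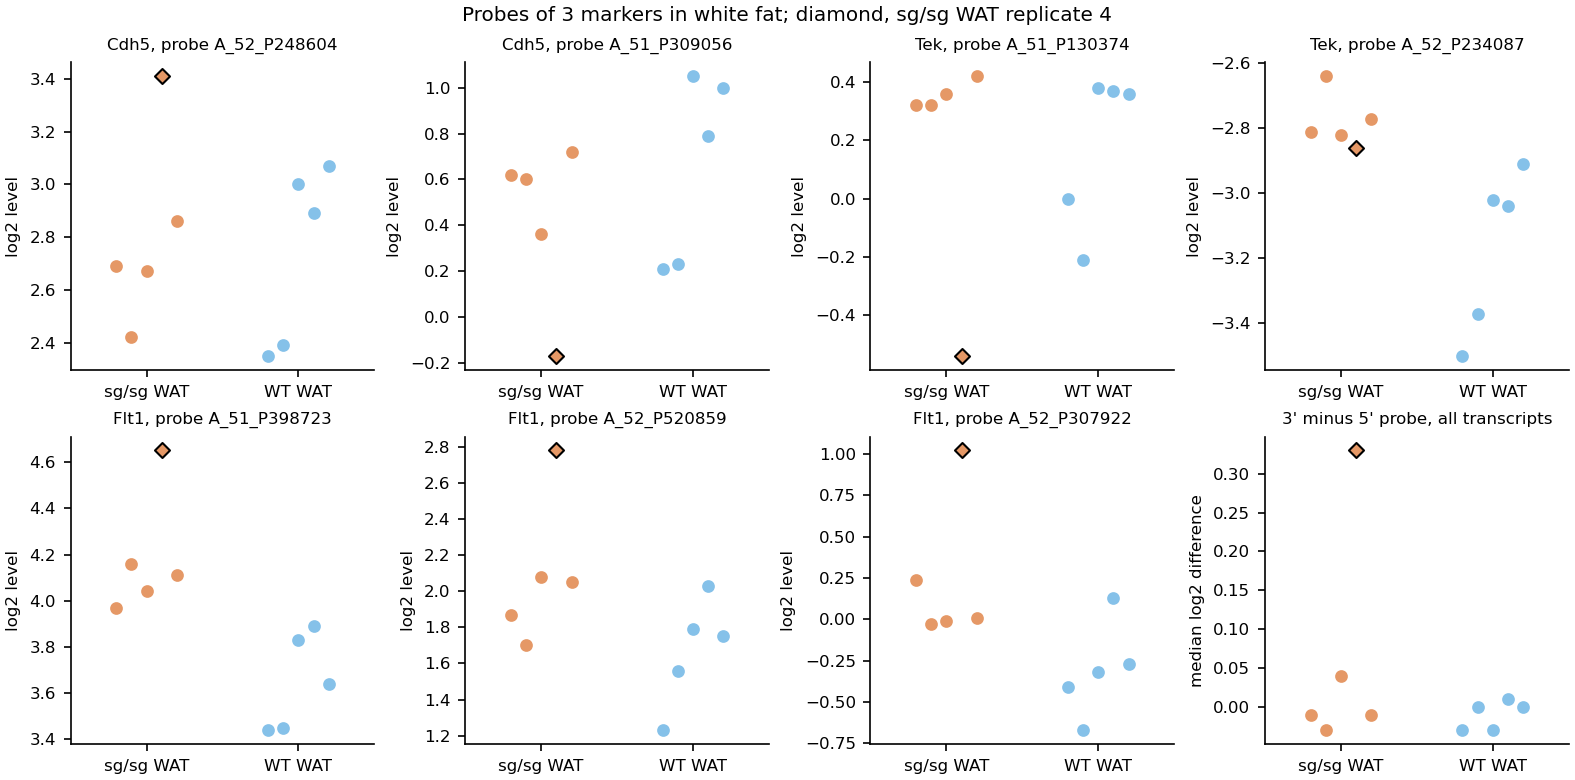
Log2 level of 7 probes of Cdh5, Tek and Flt1 on the sg/sg WAT and WT WAT arrays, and, bottom right, each array's median difference between the 3' and the 5' probe of a transcript; the diamond is sg/sg WAT replicate 4. This array is highest at the 3' probe of Cdh5 (3.41) and lowest at its 5' probe (-0.17), and stands apart in the last panel at 0.33.

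Within WT WAT, replicates 1 and 2 were below the group mean for all 10 markers, by 0.29 and 0.27 on average, and replicate 3 was above it for all 10, by 0.26. The mean level of the macrophage markers was 2.59 and 2.81 in replicates 1 and 2, and 1.90 to 2.16 in the other 3 WT arrays. In sg/sg WAT the marker mean stayed between 2.26 and 2.47 and the macrophage mean between 1.13 and 1.54. The part of macrophage RNA in the marker levels was not tested.

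The effect of the genotype was set against itself across tissues with an interaction term over all 20 arrays. None of the 10 markers passed, against 17.7% of 21705 genes. At an unadjusted p under 0.05, 2 of the 10 markers did, against 31.5% of all genes. The largest differences were those of Tie1, whose change in WAT minus that in liver was -0.60 (SE 0.25, adjusted p = 0.110), and Cldn5, at -0.49 (SE 0.17, adjusted p = 0.0574). Flt1 went the other way at 0.36 (SE 0.18, adjusted p = 0.168). That liver and WAT called different markers is therefore not shown to be a difference between the tissues. For Cldn5 the adjusted p was 0.0134 without WT WAT replicate 2 and 0.0264 without sg/sg WAT replicate 4, and for Tie1 it was 0.0158 without WT WAT replicate 1. Over 32 alternative settings of the interaction, Cldn5 passed the threshold in 7 and Tie1 in 1.

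All 10 markers were higher in WAT than in liver, in both genotypes, and every WAT array was above every liver array for each of them. Genes called higher in WAT made up 34.4% of all genes in sg/sg mice and 33.8% in WT mice (76.0% in either direction in WT), and 21.8% of genes had every WAT array above every liver array. In WT mice the median difference was 1.93 over the markers and -0.18 over all genes. Slide, scan day and tissue cannot be told apart, and the scaling assumes that the 75th percentile stands for the same amount of RNA in both tissues.

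Among the larger differences, Pecam1 differed by 2.59 between sg/sg WAT and sg/sg liver and by 2.81 between WT WAT and WT liver (6.99-fold), and Cdh5 by 2.56 and 2.59 in the same order of genotypes. Cldn5 differed by 2.13 in sg/sg and 2.62 in WT mice, Sox18 by 2.23 and 2.47, and Flt1 by 2.51 and 2.14. With SEs of 0.12 to 0.18, the neighbours Cdh5, Cldn5 and Sox18 in WT mice did not differ beyond their error. The order among them moved with the processing: the WT difference of Pecam1 was above that of Cldn5 here, and below it with the mean of all probes (2.22 for Pecam1, 2.62 for Cldn5), with quantile normalization (2.68 and 3.20) and with normexp (2.43 and 2.63).

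A lower group held the angiopoietin receptor genes, with Tie1 at 1.12 in sg/sg and 1.72 in WT mice and Tek at 1.55 and 1.65. Egfl7 differed by 1.06 in sg/sg and 1.35 in WT mice, and Kdr by 1.35 and 1.12. The smallest difference was that of Eng, at 0.72 in sg/sg and 0.73 in WT mice (SE 0.11 each, 1.66-fold in WT). The values of Flt1 are those of its brightest probe, and with the mean of its probes the WT difference was 0.45 (adjusted p = 0.0336). That mean includes dim probes. The Flt1 probe at 146539960 averaged -9.10 in WT WAT, well above background on 0 of 5 arrays, and -5.78 in WT liver. That at 146548804 averaged -7.02 and -5.99, with 0 of 5 WT livers. The brighter probes at 146456692 and 146532609 averaged 1.67 and -0.31 in WT WAT, and -0.57 and -2.53 in WT liver.

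**Figure D4:**
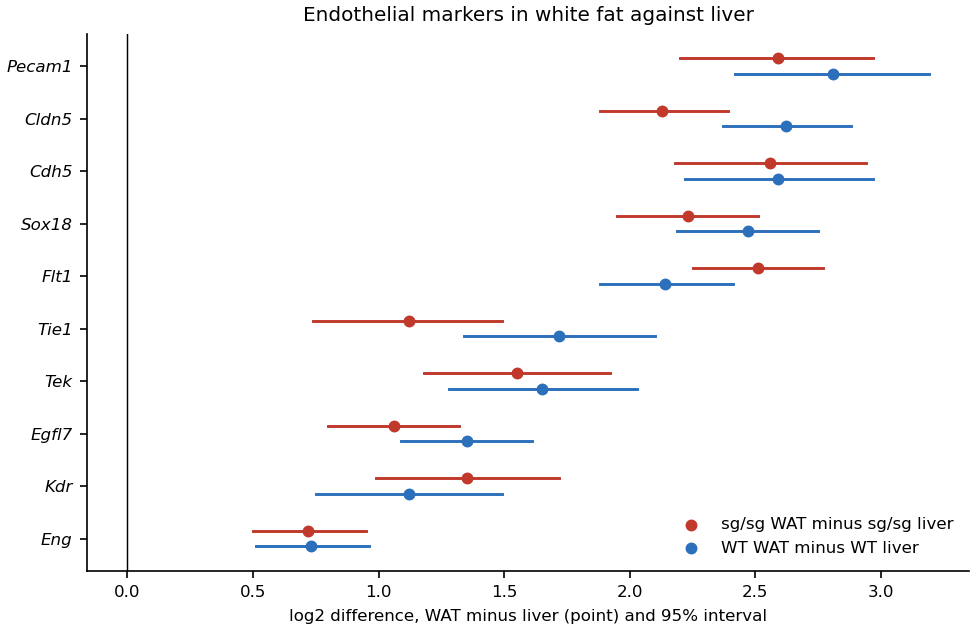
Log2 difference between WAT and liver for each marker in sg/sg mice (red) and WT mice (blue), with 95% intervals from a limma fit to 20 arrays. All points lie above 0, from 0.72 for Eng in sg/sg mice to 2.81 for Pecam1 in WT mice.

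Other genes of the endothelium gave the setting for the 10 markers. Their counts are to be read against the 9.32% of all genes called higher and 7.15% called lower in liver, and the 14.4% and 9.60% in WAT. Many of them moved when 1 array was left out, and the ranges given for this count calls in either direction. Of 35 further pan-endothelial genes tested in liver, 7 were higher and 1 lower in sg/sg mice, with a median log2 change of 0.12. Arhgef15 changed by 0.49 (SE 0.11, adjusted p = 0.0193), Tal1, a haematopoietic and endothelial transcription factor, by 0.42 (SE 0.10, adjusted p = 0.0225), and Gja4, an arterial connexin, by 0.48 (SE 0.12, adjusted p = 0.0280). Palmd, palmdelphin, fell by 0.70 (SE 0.11, adjusted p = 0.00762). In WAT, 2 of 35 were higher and 2 lower: Vwf, von Willebrand factor, changed by 0.48 and Tspan7 by 0.58, while Nostrin, which binds endothelial nitric oxide synthase, fell by 1.17 (SE 0.21, adjusted p = 0.00385) and Cd93 fell by 0.42. With 1 array left out, 1 to 8 genes of this list were called in liver, 1 of them without WT liver replicate 4 and 2 without WT liver replicate 3, and 2 to 4 in WAT.

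Of the genes of liver sinusoidal endothelium, 2 of 19 were higher in liver, Il1a (0.95, adjusted p = 0.00449), a cytokine gene, and Gata4 (0.75, adjusted p = 0.0164), a transcription factor of sinusoids, a share near that of all genes. Without WT liver replicate 1 there were 7 calls, and 2 without any other liver array. The median log2 change of the list was 0.28 in liver, against 0.05 over all genes, and -0.17 in WAT, against 0.09. In WAT 4 of 18 were lower, among them Oit3 (-3.44), Mrc1 (-0.74) and Fcgr2b (-1.07); Mrc1, the mannose receptor, and Fcgr2b, an Fc receptor, are also made by macrophages. Wnt2 was the fourth, at -1.06. The change of Oit3 was -0.44 with normexp (adjusted p = 0.687). Flt4, a VEGF receptor of lymphatic vessels, was higher (0.43, adjusted p = 0.0478).

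Of 7 lymphatic genes, 4 were higher in sg/sg WAT: Sema3d (0.55, adjusted p = 0.0273), Prox1 (1.34, adjusted p = 0.0297), the master transcription factor of lymphatic fate, Mmrn1 (1.74, adjusted p = 0.0366) and again Flt4. In WAT 0 to 4 of these genes were called with 1 array left out, and none was without WT WAT replicate 1 or 5 or without sg/sg WAT replicate 1, 3 or 5. Over 25 alternative settings, the call was lost in 11 for Sema3d, 12 for Prox1, 13 for Mmrn1 and 16 for Flt4. In liver 0 of 6 passed; the difference between the tissues was not tested for this list. Of the capillary and lipid-uptake genes, 2 of 8 were higher in liver, Cd300lg (0.39) and Lpl (0.94), which codes for lipoprotein lipase, and 1 of 14 in WAT, Rgcc (0.78, adjusted p = 0.00709). Leaving out 1 array gave 1 to 2 calls in each tissue.

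Of the ligands of the receptors among the markers, 3 of 11 were higher in liver, and 5 of 12 were higher and 1 lower in WAT. In liver these were Tgfb1 (0.63, adjusted p = 0.00884), Angpt4 (1.43, adjusted p = 0.0127) and Gdf2, the endoglin ligand BMP9 (0.28, adjusted p = 0.0438). In WAT Angpt1, the main ligand of Tek, changed by 1.37 (SE 0.28, adjusted p = 0.00745) and Vegfb, a ligand of Flt1 that does not bind Kdr, by 0.87 (SE 0.20, adjusted p = 0.0118). Tgfb3 changed by 0.62 and Vegfa by 0.87 (adjusted p = 0.0194); Vegfa was chosen after its value was seen. Tgfb1 fell by 0.84 in WAT (adjusted p = 0.00370).

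Among co-receptors and downstream genes, 3 of 31 were higher and 2 lower in liver, and 5 of 33 higher and 4 lower in WAT. Ephb4, an ephrin receptor of veins, changed by 0.64 in liver, Dll4, a Notch ligand of tip cells, by 0.68, and Smad6, a BMP-induced inhibitor, by 0.44, whereas Hes1, a Notch target, fell by 0.70. In WAT Vav3 fell by 1.28, Dok2 by 1.22 and Rbpj by 0.67, and Smad5 changed by 0.40. Of 13 junction partners, 2 were higher in liver, Jup at 0.34 and Esam at 0.38, and 2 were higher in WAT, Cgn at 1.01 and Cldn12 at 0.53. The co-receptors and downstream genes had 3 to 7 calls in liver with 1 array left out, and the junction partners 1 to 3 in WAT.

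Of 23 endothelial transcription factors tested in liver, 6 were higher and 1 lower. Klf4, induced by laminar flow, changed by 0.94 (SE 0.18, adjusted p = 0.0127) and Lmo2 by 0.65 (SE 0.13, adjusted p = 0.0152), while Hif1a fell by 0.40 (SE 0.08, adjusted p = 0.0165). Tal1, Fli1 and Sox17 are on this list and on the pan-endothelial one. In WAT 5 of 26 were higher and 1 lower, with Foxc1 at 0.85, Nr2f2, the venous factor COUP-TFII, at 0.99, Epas1 at 0.71 and Foxc2 at 1.09. The calls on this list were 3 to 7 in liver with 1 array left out, with 3 without WT liver replicate 3 or 4, and 4 to 7 in WAT.

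**Figure D5:**
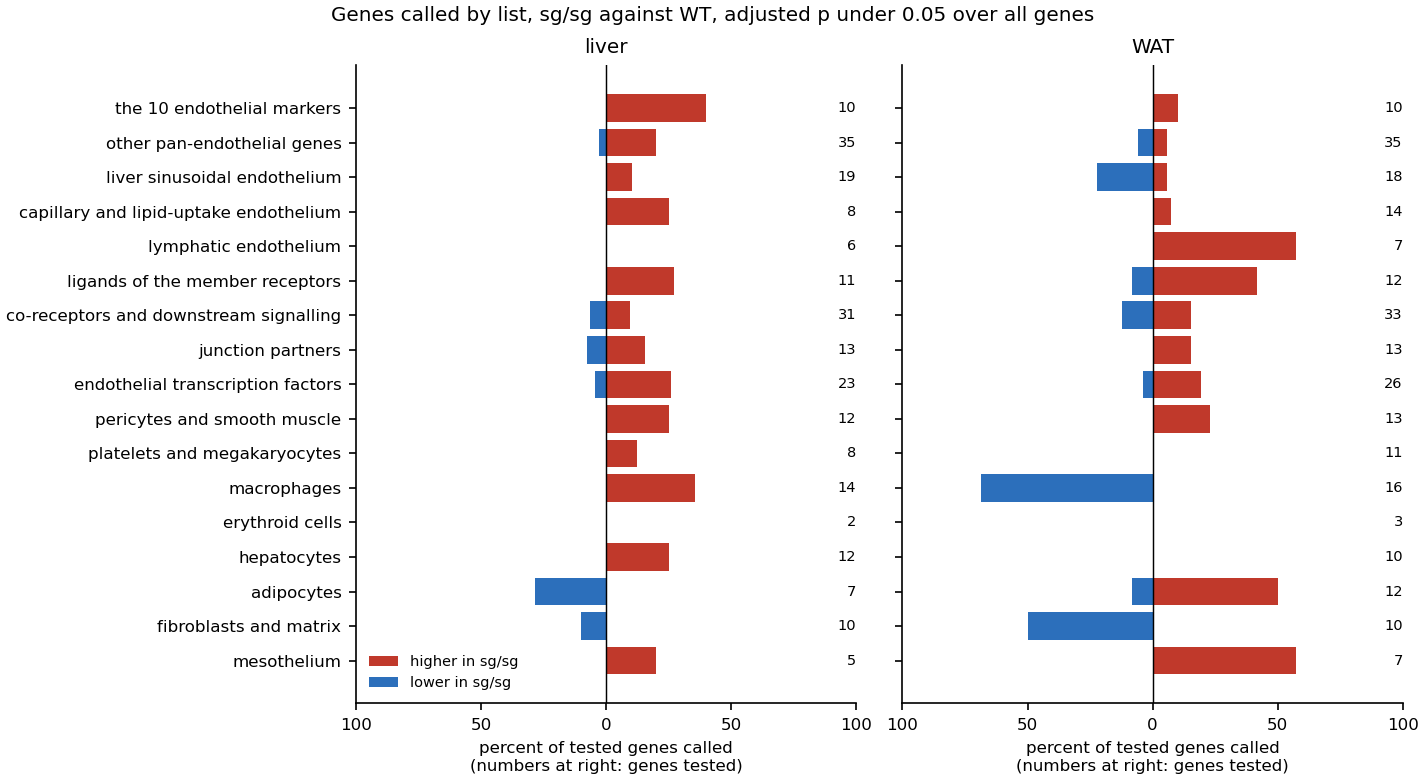
Percent of each list's tested genes that were higher (red, to the right) or lower (blue, to the left) in sg/sg than in WT mice, in liver and WAT, with the number tested at the right edge. The macrophage list has 11 of 16 genes lower in WAT and 5 of 14 higher in liver.

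Markers of other cells moved beside the endothelial ones. The counts of these lists also stand beside 9.32% of all genes called higher and 7.15% lower in liver. In WAT these shares were 14.4% and 9.60%. In liver 5 of 14 macrophage genes were higher, among them C1qa (0.80), C1qc (0.60) and Cd68 (0.68), with list means of 2.09 to 2.71 on sg/sg arrays and 1.73 to 2.33 on WT arrays. Pericyte and smooth muscle genes were higher in 3 of 12, Tagln (0.84), Cnn1 (1.57) and Rgs5 (0.66), with list means of -0.36 to 0.05 on sg/sg arrays, all above the WT arrays at -0.85 to -0.52. Hepatocyte genes were higher in 3 of 12 (Tat 0.88, Trf 0.38, Hpd 0.50), with list means of 7.75 to 7.90 on sg/sg arrays and 7.25 to 7.71 on WT arrays, platelet genes in 1 of 8 (Gp1bb 0.89) and mesothelial genes in 1 of 5 (Krt19 0.93). Adipocyte genes were lower in 2 of 7, with Cfd at -6.32 and Cidec at -3.42 and list means of 0.26 to 0.98 on sg/sg arrays, all below the WT arrays at 1.18 to 2.90, and fibroblast genes in 1 of 10 (Dpp4 -0.34). Of 2 erythroid genes none was called. With 1 array left out, the calls in liver were 1 to 7 for macrophages (1 without WT liver replicate 3), 1 to 4 for pericytes (1 without WT liver replicate 4) and 1 to 6 for hepatocytes (6 without WT liver replicate 5, and 3 or 1 otherwise). They were 0 to 3 for platelets, 0 to 2 for mesothelium and 0 to 1 for fibroblasts. Over 23 alternative settings the call was lost in 15 for Trf, 14 for Hpd and 14 for Rgs5. The part of these cells in the changes of Egfl7, Cldn5, Tie1 and Sox18 was not tested.

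In WAT 11 of 16 macrophage genes were lower, led by Lgals3 (-2.04), Gpnmb (-3.91) and Trem2 (-2.86), with list means of 1.13 to 1.54 on sg/sg arrays and 1.90 to 2.81 on WT arrays. Fibroblast genes were lower in 5 of 10 (list means of 3.59 to 3.97 on sg/sg arrays and 3.76 to 4.18 on WT arrays), such as Col1a1 (-0.84), Lum (-0.91), Fbn1 (-1.05) and Col1a2 (-0.54). Adipocyte genes were higher in 6 of 12 and lower in 1 (list means of 5.96 to 6.20 on sg/sg arrays and 5.02 to 5.81 on WT arrays), with Pnpla2 at 0.49, Plin1 at 0.66, Slc2a4 at 1.29 and Lep at -0.84. Mesothelial genes were higher in 4 of 7 (Wt1 1.04, Krt19 1.22, Upk3b 1.23, Upk1b 1.25) and pericyte genes in 3 of 13 (Tagln 0.73, Cnn1 1.65, Myh11 0.61). No gene was called of 11 platelet, 3 erythroid and 10 hepatocyte genes. With 1 array left out, the calls in WAT were 9 to 12 for macrophages, 4 to 5 for fibroblasts, 4 to 8 for adipocytes, 2 to 6 for mesothelium (6 without WT WAT replicate 5), 1 to 4 for pericytes, and 0 to 2 for erythroid cells and for hepatocytes. Over 25 alternative settings the call was lost in 12 for Upk3b and 16 for Upk1b. The part of these cells in the change of Flt1 was not tested.

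The genes whose level followed the mean of the 10 markers most closely over the 20 arrays, after the 4 group means were subtracted, are given here with Pearson's r. It was 0.875 for Fgd5, 0.874 for Myct1, 0.870 for Robo4, 0.863 for Esam, 0.858 for Fat4, 0.840 for Kcnj8 and 0.829 for Arhgef15. A probe without a gene name, A_51_P315849, had the highest, at 0.926, and changed by 0.58 in liver (adjusted p = 0.00762). Arrays share slide and RNA quality across all genes, so these values are a description.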

How the data were processed

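Single-colour (Cy3) total RNA arrays of 20 samples were analysed. Per the file headers, the authors extracted spot intensities with Agilent Feature Extraction 9.5.3.1 (9.5 in the submitters' processing notes), which subtracts background and fills dim spots with surrogate values. The deposited value table held the same processed intensity as the scanner files (largest relative difference 0). From these, log2(processed signal) minus each array's 75th percentile was computed, control spots were dropped, outlier spots were set missing and the spots of a probe averaged. A probe stayed in when at least 4 of a tissue's 10 arrays showed it well above background and at most 2 lacked it, and the probe with the highest mean stood for its gene. Probes were named by accession or synonym in RefSeq tables of GRCm38.p6 (22973 and 9749 of 41174). Coordinates of probes are on build mm7, whose annotation was not used here.

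Genotypes were compared with limma 3.58.1 in R 4.3.3, p-values adjusted by Benjamini and Hochberg's method across every tested gene (threshold 0.05). The fit was tested on simulated data with far fewer changed genes than were called here. A log2 change of 0.5 was recovered for 44.8% of 67 genes in liver, 16.4% of 67 in WAT and 9.0% of 67 for the interaction. Of the calls, 4.0%, 7.5% and 5.3% were false in the same order. Nothing in the labels beyond the design text says that arrays are separate mice, so p-values measure the spread between these samples. The precision is limited by 5 arrays per group.

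The markers and the lists were chosen with earlier results of these data known. Named were all markers, Rora, up to 4 called genes per list and tissue with the smallest p, and the 8 genes most correlated with the marker mean. The lists were further pan-endothelial genes, sinusoidal, capillary and lymphatic endothelium, ligands, co-receptors and downstream genes, junction partners, transcription factors, pericytes, platelets, macrophages, erythroid cells, hepatocytes, adipocytes, fibroblasts and mesothelium. Alternatives varied the background, scaling, filter, probe choice, outlier spots, variance prior, slide, replicate block and arrays left out. A result of the junction partners in liver is not reported here.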

Additional observations from a re-analysis of the deposited data

Results flagged for a closer look

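Among 40 groups of 5 arrays (10 markers in 4 groups), 2 held an array whose gap to its nearest neighbour, as a share of the group's range, exceeded Dixon's critical value of 0.71; chance gives such a gap in about 1 of 20 groups. Both were sg/sg WAT replicate 4. Tek was at -0.54 on this array, against 0.32 to 0.42 on the other sg/sg WAT arrays (share 0.893). Flt1 was at 4.65 on it, against 3.97 to 4.16 on the others (share 0.719), and the Flt1 change without it was 0.42 (adjusted p = 0.0212). Its median difference between 3' and 5' probes was 0.33, beside -0.03 to 0.04 on the other 19 arrays, and its part in these values was not tested.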

How the results depend on the processing

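The count of markers called in liver, 4, was 3 with median scaling, with no filter on dim probes and with the replicate block, 0 with slide as a fixed block and within slide 2 (for every probe kept apart also 0 in both), and 3 to 4 with an array left out. In WAT the count of 1 was 0 to 1 with an array left out, and 0 with normexp, median scaling, the mean of all probes and within slide 4. In the last 4 settings, limma gave 1 marker each at an unadjusted p under 0.05. The share of all genes at that threshold was 24.5%, 32.8%, 36.6% and 17.1% in the same order. Slides 5 and 6 each held 1 array of a genotype, so their fits cannot show that the call held. The Flt1 difference there was 0.44 and 0.30. With every probe kept apart, the WAT count of 1 was 0 with normexp, median scaling, slide as a fixed block and within slides 4 to 6, and 2 with the strict filter and with the replicate block; it was 0 to 2 with an array left out. The interaction count of 0 was 1 with normexp, quantile normalization and the variance trend, and 0 to 1 with an array left out. All 10 markers differed between WAT and liver under each alternative run. Over all genes, the 2765 liver calls were 1020 with no filter, 1741 with slide as a random block, 1423 with the replicate block, 2 with slide as a fixed block, 0 within slide 2 (1269 at an unadjusted p under 0.05) and 938 to 3080 with an array left out. The 5158 WAT calls were 1474 with normexp, under which liver had 3485, so that the tissue with more calls turned round, 3341 with the replicate block, 0 within slides 4, 5 and 6 (3557, 3597 and 2474 at an unadjusted p under 0.05) and 3815 to 6706 with an array left out. Deviations of same-numbered sg/sg and WT arrays had correlations of -0.09 to 0.19 in liver and -0.16 to 0.10 in WAT. Between liver and WAT arrays of the same number and genotype they were -0.04 to 0.12. These values cannot say whether arrays with the same number share a mouse. Normexp moved the median change of all genes in WAT to 0.38, from 0.09 in the reported values. Within-slide fits hold 3 or 4 arrays; for the other settings the cause was not tested.

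The following values turned their sign without passing the test. In WAT, Cdh5 was at -0.10 with normexp, -0.08 with the mean of probes and -0.30 on slide 5, and at -0.08 to 0.17 with an array left out. Cldn5 was at -0.08 with normexp and -0.03 on slide 5, and Sox18 at -0.24 on slide 5. Tek was at 0.06 with normexp, 0.01 with quantile normalization, 0.19 with the mean of probes, 0.03 on slide 5 and 0.24 on slide 6, and at -0.10 to 0.17 with an array left out. Pecam1 was at 0.01 with the mean of probes and 0.16 on slide 6, and at -0.16 to 0.10 with an array left out, and Tie1 at 0.11 on slide 6 and at -0.27 to 0.04. In liver Tek was at -0.01 with median scaling. The interaction of Cdh5 was 0.07 with median scaling and 0.03 with slide as a fixed block (-0.19 to 0.06 with an array left out), that of Tek 0.01 with median scaling (-0.21 to 0.08), and that of Eng 0.10 with median scaling (-0.07 to 0.05). Of called genes, Gp1bb in liver turned to -0.29 with slide as a fixed block and within slide 2.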

Other observations

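Alb, the albumin gene of hepatocytes, was well above background on all 10 WAT arrays, at -0.41 to 1.67 in sg/sg WAT and -3.39 to 2.32 in WT WAT, far below its liver levels of 9.52 to 10.06 in sg/sg and 9.19 to 9.64 in WT mice. Adipoq was well above background on 1 of 5 sg/sg liver arrays and on 0 of 5 WT liver arrays.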
